A study of Mus musculus with 18 samples.

Results

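The genes described here encode enzymes that cut or cross-link the extracellular matrix, and their inhibitors. They are the protein-coding genes whose symbols name matrix metalloproteinases (MMPs), tissue inhibitors of metalloproteinases (TIMPs), ADAM and ADAMTS proteinases with their ADAMTS-like relatives, and lysyl oxidases. Of 20922 genes measured, 65 met this rule: 16 ADAM, 18 ADAMTS, 5 ADAMTS-like, 17 MMP, 4 TIMP and 5 lysyl oxidase genes. A mean of at least 10 normalized counts over the 18 libraries was required for testing, and 43 of the 65 passed it. The members just above this limit were Adamtsl2, with a mean of 10.2, and Adamts3, with 11.3. Adam8, with 9.72, and Mmp9, with 6.92, lay just below it.

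RNA was sequenced from a shin muscle, the tibialis anterior, of Bmal1fx/fx mice that carried the ACTA-rtTA-TRE-Cre transgene, in which a muscle actin promoter drives a doxycycline-dependent Cre. Doxycycline was given by gavage on 3 consecutive days, and a week later both genotypes had the femoral artery of 1 hindlimb ligated, a model of peripheral artery disease. Muscle was taken on day 36 after surgery from the ligated limb and from the intact limb of the other side. WT names the control and BKO the muscle-specific Bmal1 knockout, and each had 5 intact and 4 ligated libraries. The labels print the Cre genotype as +/+ for controls and -/- for knockouts, so WT and BKO stand throughout for the libraries labelled so. The sources used here give no age, sex or time of day of collection.

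Depth was between 14089381 and 25629204 assigned reads per library. The mitochondrial ribosomal RNA mt-Rnr2 took 31.9% to 55.5% of them, most in BKO ligated libraries, at 47.9% ± 6.91 (SD, n = 4). Bmal1 itself (symbol Arntl) averaged 56.3 normalized counts in WT intact, 16.2 in WT ligated, 49.9 in BKO intact and 70.0 in BKO ligated libraries, so its total did not follow the labels. Which exon Cre removes is not stated in the labels. Of 10 clock output genes, 9 were lower in BKO in intact limbs and 9 in ligated limbs. The 10 fibre markers of the tibialis anterior were all present and summed to at least 833649 normalized counts in every library.

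MMPs are zinc-dependent proteinases that cut collagens, laminins and other matrix proteins, most of them secreted as inactive precursors. TIMPs bind and block their active sites. TIMP2 also bridges MMP14, a membrane-anchored MMP, to the precursor of MMP2, which MMP14 then activates. ADAMs are membrane-anchored proteinases that release the outer parts of cell-surface proteins, while the secreted ADAMTS enzymes cut proteoglycans such as versican and aggrecan or trim procollagens. Lysyl oxidases cross-link collagen and elastin and so stiffen scar and vessel wall. In muscle these proteins are made by fibroblasts, vessel cells, leukocytes and fibres.

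Fold changes below are on the scale of log2(normalized count + 1), each with its standard error from limma, and passing means an adjusted p under 0.05 after Benjamini-Hochberg adjustment over all 12262 genes tested. Where the lowest value of 1 group lay above the highest of the other, the groups are said not to overlap. Fewer cells of a type and less RNA per cell cannot be told apart in RNA of whole muscle, and this holds for every difference below. Normalized counts are not corrected for gene length, so levels were compared between genes only per kilobase of exon. Per kilobase, the highest members in WT intact muscle were Timp3 at 194 normalized counts, Timp2 at 177, Adam9 at 174, Mmp2 at 137 and Adamts1 at 112. Adam10 followed at 41.5, Adamtsl4 at 38.1 and Adamtsl5 at 36.9. In WT ligated muscle Mmp2 came highest at 257, followed by Timp3 at 222, and Adamts1 stood at 62.4.

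Ligation was compared with the intact limb first in WT. Of the 43 tested members 19 rose and 2 fell, against 18.7% of all tested genes higher and 21.1% lower. The median log2 fold change of the members was 0.64, while that of all tested genes was -0.00. For 14 members that rose and both that fell the WT ligated and WT intact values did not overlap, which held for 14.7% and 17.8% of all tested genes. In BKO, 27 members rose and 1 fell, against 22.1% and 25.1% of all tested genes, with a median of 0.74. The values did not overlap for 17 of those higher and for the 1 lower, against 16% and 19.7% of all tested genes. The comparisons in WT and BKO share no libraries, though they share an estimate of the spread. In both, 16 members rose, which is 84.2% of those that rose in WT and 59.3% of those that rose in BKO. Over all tested genes that rose, the shares were 65.8% and 55.7%. The 43 members are not independent replicates. Across them the log2 fold changes of WT and BKO had the same sign in 35 and a Pearson correlation of 0.638, against 0.752 over all tested genes.

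**Figure D1:**
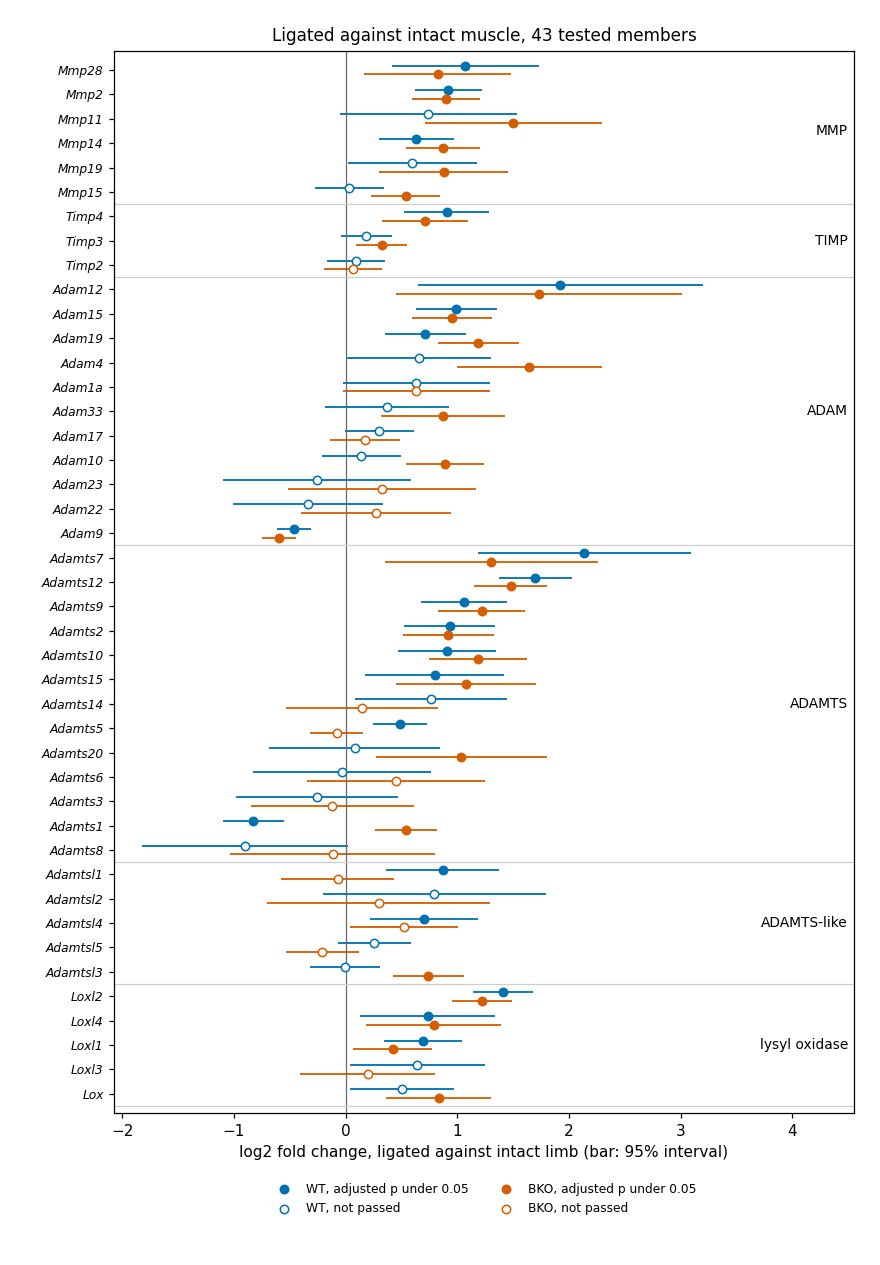
Log2 fold change of ligated against intact muscle for the 43 tested members, grouped by family, in WT (blue) and BKO (orange). Points are limma estimates, bars are 95% intervals and filled points passed at an adjusted p under 0.05. Most points lie to the right of 0, Adam9 lies to the left in both genotypes, and Adamts1 lies on opposite sides of 0.

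Among the MMPs, all 6 tested genes had higher means in ligated muscle in both genotypes, and 3 passed in WT and 6 in BKO. Mmp2, the gelatinase that cuts denatured collagen and basement membrane (ENSMUSG00000031740, chromosome 8, 92827291 to 92853420, plus strand of mm10), stood at 352, 506, 525, 468 and 456 normalized counts in WT intact libraries. In WT ligated libraries it stood at 889, 820.4, 911 and 847. BKO intact libraries held 437, 406, 309, 421 and 290.0, and BKO ligated libraries 653, 696, 539 and 909. The ligated values lay above all intact values of the same genotype. Mmp2 rose by 0.92 ± 0.14 in WT (adjusted p = 3.8e-05) and by 0.90 ± 0.14 in BKO (adjusted p = 3.91e-05), which is 1.89-fold and 1.87-fold.

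Mmp14, the membrane-anchored collagenase that activates MMP2 (ENSMUSG00000000957, chromosome 14, 54431612 to 54445364), is the next. In WT its mean went from 90.5 ± 16.5 (SD, n = 5) to 140.0 ± 19.4 (SD, n = 4). In BKO it went from 64.3 ± 7.76 (SD, n = 5) to 120.0 ± 25.3 (SD, n = 4). Neither genotype's ligated values overlapped its intact values. The log2 fold changes were 0.63 ± 0.16 (adjusted p = 0.003) and 0.87 ± 0.16 (adjusted p = 0.000156). Mmp28, a secreted MMP also called epilysin, passed in both genotypes as well. Mmp11, Mmp15 and Mmp19 passed in BKO and not in WT, and none of the 3 passed the test of that difference. Of the exon bases of Mmp19 28.3% overlap antisense genes.

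Of the 17 MMP genes 11 were too low for the test. Mmp9, the gelatinase of neutrophils and macrophages, had 12.9, 16.6, 5.91, 5.78 and 7.02 normalized counts in WT intact and 2.43, 2.71, 13.1 and 4.94 in WT ligated libraries. In BKO it had 7.11, 12.6, 3.94, 15.9 and 5.09 in intact and 0.999, 4.91, 0.00 and 2.66 in ligated libraries. The ranges overlapped in both genotypes. Mmp3, the stromelysin, had a mean of 3.53 ± 3.27 (SD, n = 5) normalized counts without and 9.81 ± 3.14 (SD, n = 4) with ligation in WT. Mmp12, the macrophage elastase, had 0 reads in 4 of 5 WT intact libraries and between 1.36 and 5.76 normalized counts in WT ligated ones. Mmp13, a collagenase, ranged from 0.963 to 35.5 in WT intact muscle and from 0.00 to 11.3 in WT ligated muscle, and Mmp8, the collagenase of neutrophils, averaged 0.444 over all libraries. Mmp17 and Mmp23 averaged 5.06 and 6.17, and Mmp24, Mmp25 and Mmp27 at most 0.348. With the limit lowered to a mean of 1, 14 of the 22 low members of all families could be tested. With ligation 6 rose in WT (Adam8, Adamts4, Adamts17, Mmp3, Mmp12 and Timp1), against 15.7% of the 16404 genes tested at that limit. In BKO, Adam11, Adamts17 and Mmp16 rose, against 18.5%, and Mmp9 fell, against 19.1%. Between genotypes and in the interaction 0 of the 14 passed by limma, and 1 did at an unadjusted p under 0.05 (Mmp13, lower in BKO intact muscle), against 13.2% of genes called in intact and 6.49% in ligated limbs and 4.02% in the interaction. The other tools were not run at this limit.

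Of the TIMPs, 1 of 3 tested genes rose in WT and 2 of 3 in BKO. Timp4, the inhibitor known from heart and muscle (ENSMUSG00000030317, chromosome 6, 115241892 to 115252205), stood at 105, 95.9, 84.7, 109.8 and 119 normalized counts in WT intact and at 198, 254, 189 and 143 in WT ligated libraries. All ligated values lay above all intact ones. In BKO the intact values were 136, 127, 191, 129 and 110.2 and the ligated ones 207, 297, 257 and 159.6, which overlap. Timp4 rose by 0.90 ± 0.18 in WT (adjusted p = 0.000537) and by 0.71 ± 0.18 in BKO (adjusted p = 0.00325). The call in BKO was lost without the 2 BKO ligated libraries richest in mt-Rnr2 (replicates 4 and 5; adjusted p = 0.141), a choice made after seeing the data.

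Timp2 did not pass with ligation, at 0.09 ± 0.12 in WT (adjusted p = 0.578) and 0.06 ± 0.12 in BKO (adjusted p = 0.694). Timp3, an inhibitor that binds to the matrix and also blocks ADAM17 and ADAMTS enzymes, was at 0.19 ± 0.11 in WT (adjusted p = 0.189) and rose by 0.32 ± 0.11 in BKO (adjusted p = 0.021). The Timp3 call ended without BKO intact library 4 or BKO ligated library 2 or 4 (adjusted p up to 0.0954 over all alternatives tried). Of its exon bases 21.3% overlap an antisense gene, and the split of reads there is uncertain. Timp1, which rises in inflamed tissue, stayed under the limit. Its mean was 1.83 ± 1.57 (SD, n = 5) without and 6.60 ± 1.76 (SD, n = 4) with ligation in WT, and in BKO 2.03 ± 2.43 (SD, n = 5) without and 3.95 ± 2.20 (SD, n = 4) with ligation.

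Of 11 tested ADAM genes, 3 rose and 1 fell in WT, and 6 rose and 1 fell in BKO. Adam9, a widely expressed sheddase (ENSMUSG00000031555, chromosome 8, 24949611 to 25016927), was the member that fell in both. Its values were 756, 731, 713, 707 and 672 in WT intact and 523, 483, 555 and 519.6 in WT ligated libraries. In BKO they were 671, 618, 693, 689.9 and 586 in intact and 409, 421, 419.8 and 470.1 in ligated libraries. Ligated and intact values did not overlap in either genotype. The changes were -0.46 ± 0.07 in WT (adjusted p = 4.04e-05) and -0.60 ± 0.07 in BKO (adjusted p = 1.57e-06).

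Adam15, an adhesive ADAM of vessels, went from 73.8 ± 10.01 (SD, n = 5) to 148 ± 23.0 (SD, n = 4) in WT and from 77.5 ± 19.4 (SD, n = 5) to 148 ± 17.3 (SD, n = 4) in BKO. It rose by 0.99 ± 0.17 (adjusted p = 0.000119) and 0.95 ± 0.17 (adjusted p = 0.000141). Of its exon bases 20.6% overlap an antisense gene. Adam19, also called meltrin beta, went from 71.2 ± 20.7 (SD, n = 5) to 114 ± 8.99 (SD, n = 4) in WT and from 57.0 ± 8.09 (SD, n = 5) to 131 ± 21.7 (SD, n = 4) in BKO. Its rise was 0.72 ± 0.17 in WT (adjusted p = 0.00262) and 1.19 ± 0.17 in BKO (adjusted p = 1.4e-05). Adam12, the meltrin alpha of regenerating muscle, rose in both genotypes from a low level, with a mean of 12.8 over all libraries.

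Adam10, the main sheddase of Notch receptors and cadherins (ENSMUSG00000054693, chromosome 9, 70678997 to 70780229), stood at 157, 213, 276, 208 and 166 in WT intact and at 217, 244, 185 and 243 in WT ligated libraries. These ranges overlap. In BKO it stood at 162, 134, 146, 172 and 205 in intact and at 235, 400.0, 328 and 266 in ligated libraries, which do not. It passed in BKO at 0.89 ± 0.17 (adjusted p = 0.000221) and not in WT, at 0.14 ± 0.17 (adjusted p = 0.532). The difference between the genotypes was 0.75 ± 0.24 (adjusted p = 0.0678), with a 95% interval of 0.25 to 1.25, and did not pass. It passed by DESeq2 on whole reads (adjusted p = 0.0245) and not by edgeR, and it passed when WT intact 2 or 6, BKO intact 5 or BKO ligated 2 was left out. Adam17, the sheddase of tumour necrosis factor, did not pass in any comparison, and neither did Adam22 and Adam23, which lack the zinc-binding motif. Adam1a, with 63.7% of its exon bases shared with other genes, did not pass either. Adam33 rose in BKO and did not pass in WT. Adam5, Adam21 and Adam32 had means of at most 1.54 normalized counts over all libraries.

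Among the 13 tested ADAMTS genes, 7 rose and 1 fell in WT, and 8 rose and 0 fell in BKO. None was lower in BKO ligated than in BKO intact muscle at an unadjusted p under 0.05 by limma, or by edgeR or DESeq2. Adamts12, which cuts cartilage oligomeric matrix protein (ENSMUSG00000047497, chromosome 15, 11064790 to 11349231), stood at 34.8, 58.0, 47.3, 47.2 and 41.1 in WT intact and at 147, 141, 139 and 169 in WT ligated libraries. In BKO it stood at 51.6, 55.8, 51.2, 45.2 and 36.5 in intact and at 112, 131, 133 and 167 in ligated libraries. Every ligated value lay above every intact value. The rise was 1.70 ± 0.16 in WT (adjusted p = 5.25e-08) and 1.48 ± 0.16 in BKO (adjusted p = 2.92e-07).

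Adamts7, a relative with the same substrate, had 5.16, 10.7, 6.90, 3.85 and 5.02 normalized counts in WT intact and 17.8, 25.8, 34.8 and 48.6 in WT ligated libraries. Its rise of 2.14 ± 0.46 (adjusted p = 0.001) is the highest estimate of any tested member in WT, from a level near the limit. In BKO the intact values of 11.6, 2.11, 8.86, 15.9 and 13.6 overlapped the ligated ones of 41.0, 11.04, 30.6 and 21.3, at 1.305 ± 0.46 (adjusted p = 0.0237). That call ended without BKO intact library 2 or BKO ligated library 2 or 5 (adjusted p up to 0.0991 over the alternatives).

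Adamts9, a versicanase of vessels and development, went from 81.9 ± 28.2 (SD, n = 5) to 165 ± 12.4 (SD, n = 4) in WT and from 93.8 ± 13.1 (SD, n = 5) to 221 ± 39.0 (SD, n = 4) in BKO. The rises were 1.06 ± 0.19 (adjusted p = 0.000128) and 1.22 ± 0.19 (adjusted p = 2.24e-05). Adamts10, which binds fibrillin microfibrils, rose by 0.91 ± 0.21 in WT (adjusted p = 0.00178) and by 1.19 ± 0.21 in BKO (adjusted p = 0.000112). Adamts2, the enzyme that removes the amino-terminal propeptide of procollagen I, went from 129 ± 24.0 (SD, n = 5) to 244 ± 18.3 (SD, n = 4) in WT and from 89.8 ± 23.8 (SD, n = 5) to 170.0 ± 43.6 (SD, n = 4) in BKO. It rose by 0.93 ± 0.19 (adjusted p = 0.000677) and by 0.92 ± 0.19 (adjusted p = 0.000598). The other procollagen proteinases, Adamts3 and Adamts14, lay near the limit and did not pass in any comparison, and neither did Adamts6. Adamts15 rose in both genotypes. Adamts8 had lower means with ligation and did not pass in either genotype, nor between genotypes in ligated limbs. Its mean went from 28.1 ± 7.93 (SD, n = 5) to 14.4 ± 3.53 (SD, n = 4) in WT. In BKO it went from 8.30 ± 5.71 (SD, n = 5) to 6.77 ± 3.49 (SD, n = 4). Adamts16, Adamts18 and Adamts19 had means of at most 2.22 normalized counts over all libraries. Adamts17, under the limit, had 0 reads in all 5 WT intact libraries and 5.67, 10.8, 3.48 and 0.823 normalized counts in WT ligated ones. In BKO it had 0 reads in 4 of 5 intact libraries and 3.998, 17.2, 8.17 and 7.98 normalized counts in ligated ones.

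Of the 5 ADAMTS-like genes, 2 rose in WT, Adamtsl1 and Adamtsl4, and 1 in BKO, Adamtsl3. Adamtsl4 went from 159.8 ± 48.5 (SD, n = 5) to 256 ± 56.8 (SD, n = 4) in WT, by 0.70 ± 0.23 (adjusted p = 0.0197), and was at 0.53 ± 0.23 in BKO (adjusted p = 0.068). Adamtsl5 did not pass, at 0.26 ± 0.16 in WT (adjusted p = 0.2) and -0.21 ± 0.16 in BKO (adjusted p = 0.284). The call for Adamtsl4 ended without WT intact library 3 or 5 or WT ligated library 2 (adjusted p up to 0.0809).

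All 5 lysyl oxidase genes had higher means in ligated muscle in both genotypes, and 3 passed in WT and 4 in BKO. Loxl2, which cross-links collagen IV (ENSMUSG00000034205, chromosome 14, 69609068 to 69695834), stood at 125, 139.8, 134, 154 and 130.5 in WT intact and at 350.0, 373, 346 and 390.3 in WT ligated libraries. In BKO it stood at 115, 122, 106, 123 and 110.2 in intact and at 211, 334, 221 and 341 in ligated libraries. No ligated value overlapped an intact one. It rose by 1.41 ± 0.13 in WT (adjusted p = 3.98e-08) and by 1.22 ± 0.13 in BKO (adjusted p = 2.52e-07).

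Loxl1, which acts on elastin, rose by 0.69 ± 0.17 in WT (adjusted p = 0.00253) and by 0.42 ± 0.17 in BKO (adjusted p = 0.0452). Lox, the founding member (ENSMUSG00000024529), went from 58.0 ± 9.26 (SD, n = 5) to 82.9 ± 14.98 (SD, n = 4) in WT, at 0.51 ± 0.23 (adjusted p = 0.0805). In BKO it rose from 43.1 ± 12.6 (SD, n = 5) to 75.8 ± 16.8 (SD, n = 4), by 0.83 ± 0.23 (adjusted p = 0.00464). Loxl4 rose by 0.74 ± 0.29 in WT (adjusted p = 0.0495) and by 0.79 ± 0.29 in BKO (adjusted p = 0.0306) from a mean of 15.2 over all libraries, and Loxl3 did not pass, at 0.64 ± 0.29 (adjusted p = 0.0843) and 0.20 ± 0.29 (adjusted p = 0.596). The calls for Loxl1 in BKO and Loxl4 in WT ended when any of several single libraries was left out, for Loxl1 BKO intact 3 or 5 or BKO ligated 2, 4 or 6 among them (adjusted p up to 0.205) and for Loxl4 WT ligated 2, 5 or 6 among them (up to 0.172). The Loxl4 call in BKO ended without BKO intact 1 or 4, BKO ligated 2 or 4, or the 2 libraries richest in mt-Rnr2, and with no filter or the replicate block (up to 0.144).

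**Figure D2:**
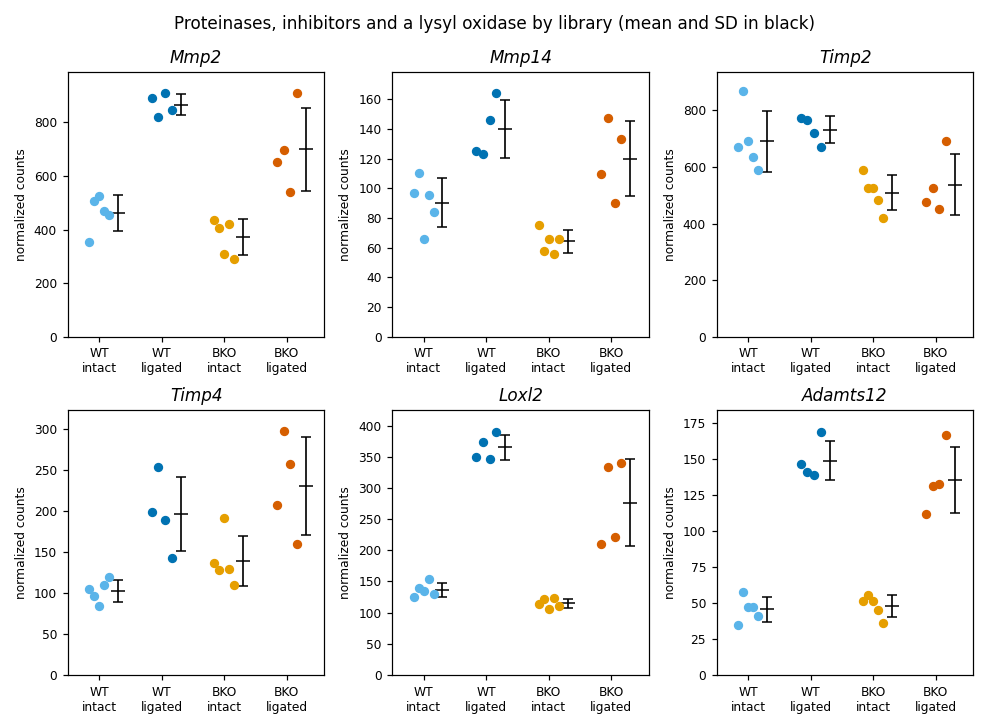
Normalized counts of 6 members in every library, by group, with the group mean and SD in black at the side of each set of points (5 intact and 4 ligated libraries per genotype). Loxl2 and Adamts12 separate by limb in both genotypes, and Timp2 is lower in BKO in both limbs.

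Genes of the matrix, of its assembly, of substrates and partners of ADAMs and of other matrix proteases were counted as whole lists. With ligation 18.7% of all tested genes rose and 21.1% fell in WT, and 22.1% rose and 25.1% fell in BKO. All 15 tested fibrillar and network collagen genes rose with ligation in WT and in BKO, with medians of 1.31 and 1.26. Of 15 tested elastic fibre genes, 10 rose in WT and 9 in BKO, elastin (Eln) by 1.99 ± 0.26 (adjusted p = 3.54e-06) and 1.96 ± 0.26 (adjusted p = 3.52e-06). Of 18 tested genes of collagen assembly and processing, 4 rose and 2 fell in WT, and 7 rose and 3 fell in BKO. The collagen chaperone gene Serpinh1 rose by 1.08 ± 0.12 in WT (adjusted p = 5.22e-07). Of 22 tested membrane substrates and partners of ADAMs, 15 rose and 2 fell in WT and 13 rose and 0 fell in BKO. The receptor Notch1 rose by 1.12 ± 0.13 in WT (adjusted p = 7.46e-07) and by 1.01 ± 0.13 in BKO (adjusted p = 2.46e-06). Of 20 tested genes of the plasminogen system and other matrix proteases, 8 rose and 2 fell in WT and 7 rose and 5 fell in BKO. Ctsd, the lysosomal protease cathepsin D, fell by 0.53 ± 0.06 in WT (adjusted p = 3.55e-07) and by 0.63 ± 0.06 in BKO (adjusted p = 3.86e-08).

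Markers of cell types that make these proteins moved with ligation as well. The shares of all tested genes that rose and fell were 18.7% and 21.1% in WT and 22.1% and 25.1% in BKO. Of 12 fibroblast and fibro-adipogenic markers, 7 rose in WT and 6 in BKO, and their summed level ranged from 9171 to 11463 normalized counts in WT intact, 17288 to 18572 in WT ligated, 5806 to 9933 in BKO intact and 11415 to 15304 in BKO ligated libraries. Of 12 endothelial markers 9 rose in WT and 10 in BKO, with sums of 3156 to 3771 in WT intact, 4681 to 6146 in WT ligated, 3318 to 4140 in BKO intact and 5229 to 7014 in BKO ligated libraries. Of 12 macrophage markers 8 rose and 1 fell in WT, and 3 rose and 1 fell in BKO, with sums of 632 to 843, 1205 to 1503, 450 to 1044 and 685 to 1102 in the same order. Of 10 adipocyte markers 9 rose and 1 fell in each genotype, with median log2 fold changes of 4.34 in WT and 3.73 in BKO. Their sums were 2790.5 to 4820, 7134 to 9999.7, 4685 to 6028 and 4651 to 7925 in the same order. A sum is weighted towards the markers with the most counts, and the BKO ranges overlap although 9 markers rose. Of the 10 fibre markers 6 fell and 1 rose in each genotype, with medians of -0.41 in WT and -0.43 in BKO. Their sum ranged from 1197550 to 1413160 in WT intact, 833649 to 982291 in WT ligated, 1170990 to 1406830 in BKO intact and 992126 to 1085980 in BKO ligated libraries. No marker of these 3 lists of fibroblasts, endothelium and macrophages was at 0 in any library. Of 9 neutrophil markers 7 were measured and 0 were tested, and they summed to at most 25.3 normalized counts in any library, with Ltf at 0 in 17 of 18. The part of these cell types in the changes of the members was not tested.

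BKO was compared with WT in intact limbs, where no artery was ligated. Of the 43 members, 0 were higher and 9 lower in BKO, against 8.56% and 9.75% of all tested genes. The values did not overlap for 5 of the 9, and also for Loxl2, which did not pass. No overlap in this direction held for 7.23% of all tested genes. The median log2 fold change of the members was -0.24, and that of all tested genes 0.00. The 9 were Adamts1, Adamts2, Adamts5, Adamts8, Adamtsl3, Adamtsl4, Adamtsl5, Mmp14 and Timp2. They hold 4 of the 13 tested ADAMTS genes and 3 of the 5 tested ADAMTS-like genes. At an unadjusted p under 0.05 limma placed 2 members higher, and edgeR and DESeq2 placed 0 higher after adjustment. No ADAM and no lysyl oxidase gene passed by limma, edgeR or DESeq2, and 1 of each family was lower at an unadjusted p under 0.05.

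Adamts1, a proteinase that cuts versican and binds vascular endothelial growth factor (ENSMUSG00000022893, chromosome 16, 85793827 to 85803113, minus strand), had 457, 559, 633, 687 and 621 normalized counts in WT intact libraries. BKO intact libraries held 236, 189, 246, 227 and 169. Every BKO value lay under every WT value. The change was -1.47 ± 0.13 (adjusted p = 6.36e-08), which is 2.77-fold lower, and the exact two-sided permutation p was 0.00794, the smallest that 5 against 5 libraries allow (0.0498 adjusted over 116 such tests). These tests cover only the 29 tested members named here, many of them named because they passed by limma in the same data. The adjusted value depends on that choice, and no conclusion is drawn from it.

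Adamts5, an aggrecanase and versicanase (ENSMUSG00000022894, chromosome 16, 85856173 to 85901828, minus strand), is the next member along the chromosome, 53.1 kb from Adamts1. Its values were 250.4, 275, 289.7, 265 and 277 in WT intact and 185, 154, 157, 169 and 121 in BKO intact libraries, with no overlap. The change was -0.80 ± 0.11 (adjusted p = 2.2e-05). Adamts8, another proteinase of this group (ENSMUSG00000031994, chromosome 9, 30942562 to 30963838), had 29.7, 37.9, 15.8, 28.9 and 28.1 in WT and 1.78, 6.32, 15.8, 12.6 and 5.09 in BKO. The ranges nearly touch at 15.8 without overlapping, and the change was -1.85 ± 0.42 (adjusted p = 0.00327), with few reads behind each BKO value. Its neighbour Adamts15, 20.1 kb away, went from 20.3 ± 6.72 (SD, n = 5) to 15.7 ± 7.03 (SD, n = 5) and did not pass.

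The ADAMTS-like proteins have the binding domains of ADAMTS enzymes without the catalytic one, and several attach to fibrillin microfibrils. Adamtsl3 (ENSMUSG00000070469, chromosome 7, 82335694 to 82614450, plus strand) had 116, 142, 121, 112 and 109 normalized counts in WT intact and 81.8, 64.3, 72.9, 52.7 and 74.6 in BKO intact libraries. These do not overlap, and the change was -0.79 ± 0.14 (adjusted p = 0.000478). Adamtsl5 went from 174 ± 22.6 (SD, n = 5) to 124 ± 8.22 (SD, n = 5), also without overlap (-0.48 ± 0.15, adjusted p = 0.0264). Adamtsl4, which binds fibrillin 1, went from 159.8 ± 48.5 (SD, n = 5) to 101.2 ± 30.4 (SD, n = 5) with overlap (-0.65 ± 0.22, adjusted p = 0.0424). Adamtsl5 no longer passed when WT intact 6 or BKO intact 2 was left out (adjusted p up to 0.0725 over the alternatives).

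Timp2 (ENSMUSG00000017466, chromosome 11, 118301069 to 118355740) stood at 669.8, 869, 694, 634 and 589 in WT intact and at 589, 526, 527, 485 and 419.7 in BKO intact libraries, whose ranges meet at 589. Its change was -0.44 ± 0.12 (adjusted p = 0.0119). Mmp14 changed by -0.47 ± 0.15 (adjusted p = 0.0324) and Adamts2 by -0.54 ± 0.18 (adjusted p = 0.0426). The calls for Mmp14, Adamts2 and Adamtsl4 were each lost without BKO intact library 2 or 4, among others (adjusted p up to 0.0977, 0.122 and 0.123). Mmp2 did not pass, at -0.31 ± 0.14 (adjusted p = 0.122), nor did Timp3, at -0.27 ± 0.10 (adjusted p = 0.0794), nor Timp4, at 0.41 ± 0.17 (adjusted p = 0.109). Without BKO intact library 2, 5 members passed in place of 9.

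The promoters of Adamts1 and Adamtsl3 are shown because both genes were lower in BKO intact muscle and, with Adamts5, passed the test of a difference between the genotypes in the ligation effect, described last. They have an entry in the RefSeq promoter table (GRCm38.p6). Each is the 250 bases before the gene's start, on the gene's own strand. Capitals mark the TATA box TATAAA and the GC box GGGCGG, searched on both strands, so that a GC box on the other strand reads CCGCCC. The stretch of Adamts1 lies at chr16:85803114-85803363 (minus strand) and that of Adamtsl3 at chr7:82335444-82335693 (plus strand).
Adamts1: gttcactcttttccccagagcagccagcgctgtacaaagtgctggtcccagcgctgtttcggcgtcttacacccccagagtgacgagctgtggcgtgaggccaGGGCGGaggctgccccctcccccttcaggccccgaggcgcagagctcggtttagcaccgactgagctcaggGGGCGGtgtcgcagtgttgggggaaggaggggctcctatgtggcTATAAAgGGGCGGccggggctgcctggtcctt
Adamtsl3: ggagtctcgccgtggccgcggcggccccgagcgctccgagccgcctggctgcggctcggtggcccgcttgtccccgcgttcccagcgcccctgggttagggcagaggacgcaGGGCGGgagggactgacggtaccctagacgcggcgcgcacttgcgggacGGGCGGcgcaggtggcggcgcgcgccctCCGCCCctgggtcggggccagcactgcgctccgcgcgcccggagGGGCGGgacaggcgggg
The Adamts1 stretch holds 65.6% G and C, 1 TATA match that begins 32 bases before the start and 3 GC box matches, 1 of which follows the TATA match closely without overlapping it. The Adamtsl3 stretch holds 80% G and C, 4 GC box matches and no TATA match.

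Of the 43 tested members 26 had an entry, with 28 promoters of 300 bases reaching from 250 before to 50 after the start. The E-box CACGTG, the letters bound by BMAL1 with CLOCK, was in 7.14% of them, against 7.15% of all 32851 promoters in the table. The AP-1 motif TGANTCA was in 3.57% against 7.81%, the TATA box in 7.14% against 13.6% and the GC box in 75% against 35.7%. The D-box TTATGTAA was in none of the 28, against 0.938% of all. Of the 9 members lower in BKO intact muscle 7 had an entry: 0 held the E-box, 0 the AP-1 motif, 0 the D-box, 1 the TATA box and 7 the GC box. These are matches of letters in a short window and say nothing of binding.

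Beside these, 1 of 15 tested collagen genes was lower in BKO intact muscle and 0 higher, against 9.75% and 8.56% of all tested genes. Of 15 tested elastic fibre genes, 5 were lower and 0 higher. The elastic fibre genes were the latent TGF-beta binding protein genes Ltbp1, Ltbp3 and Ltbp4 together with Efemp1 and Emilin2, from -0.51 ± 0.11 for Ltbp3 (adjusted p = 0.0029) to -0.87 ± 0.19 for Efemp1 (adjusted p = 0.003). Of the plasminogen system and other matrix proteases, 5 of 20 were lower and 1 higher. Serpine2, a secreted inhibitor of serine proteases, changed by -0.70 ± 0.09 (adjusted p = 2.04e-05). Of the markers, 2 of 12 for fibroblasts and fibro-adipogenic cells were lower (Dcn and Gsn). So were 5 of 9 tested for smooth muscle and pericytes and 3 of 9 for tendon. None of 12 endothelial and none of 12 macrophage markers passed by limma, edgeR or DESeq2. At an unadjusted p under 0.05 by limma, 3 endothelial markers were higher in BKO and 0 lower. For macrophages 1 marker was higher and 1 lower at that limit. The smooth muscle and pericyte markers had a median log2 fold change of -0.37. Their sum ranged from 23187 to 26426 normalized counts in WT intact and from 21593 to 23923 in BKO intact libraries, most of it from Des, which muscle fibres also express, at means of 18037 and 17772. Notch3 went from 250.01 ± 28.7 to 179 ± 42.0 and Cspg4 from 174 ± 15.9 to 129 ± 19.1 (SD, n = 5 each). The part of these cells in the lower members was not tested.

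**Figure D3:**
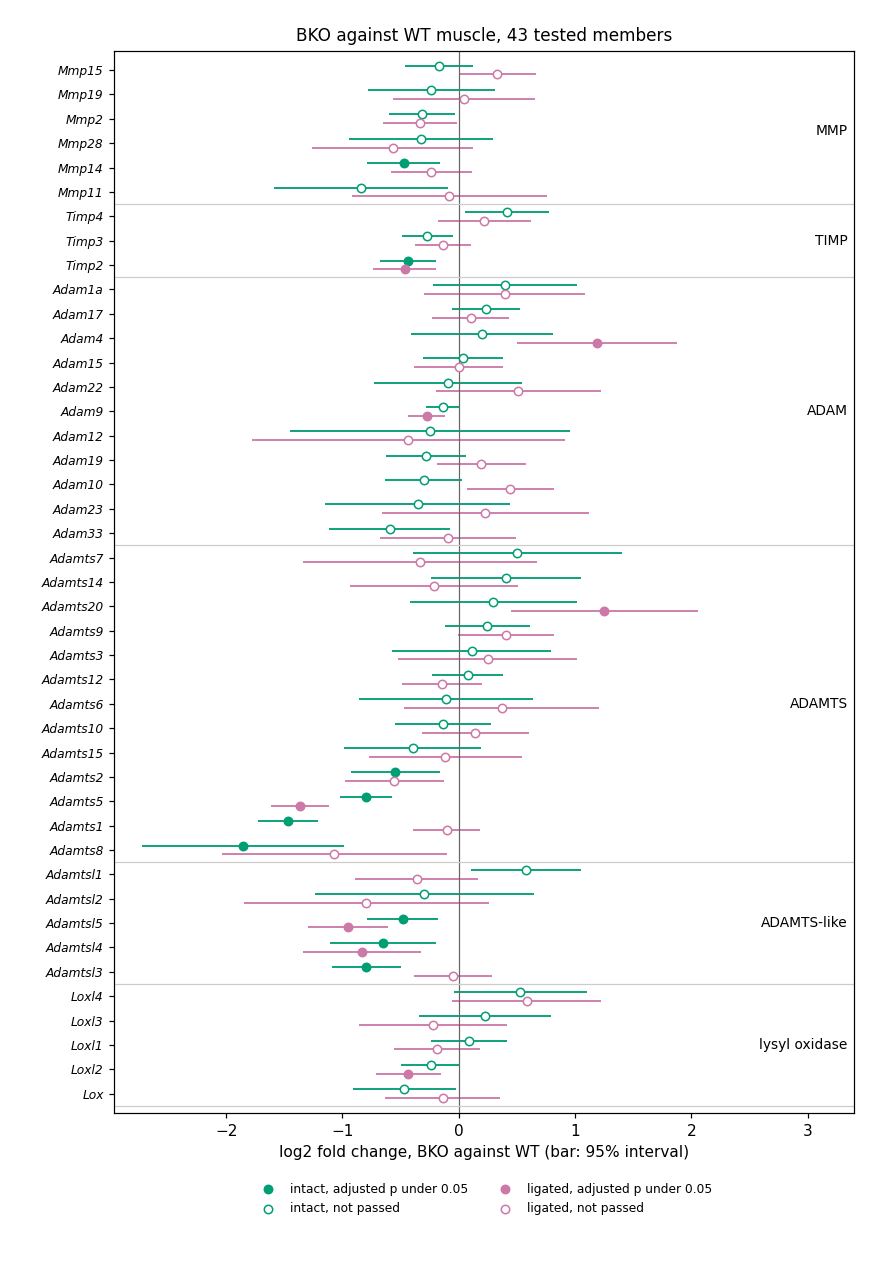
Log2 fold change of BKO against WT for the 43 tested members, grouped by family, in intact (green) and ligated (pink) limbs. Points are limma estimates, bars are 95% intervals and filled points passed at an adjusted p under 0.05. Adamts1 and Adamts8 lie lowest in intact limbs and Adamts5 in ligated limbs, while Adamts20 and Adam4 lie highest in ligated limbs.

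In ligated limbs 2 members were higher and 6 lower in BKO than in WT, against 4.16% and 4.68% of all tested genes. The values did not overlap for 0 of the 2 and 5 of the 6, and also for Adamts9 (higher) and Adamts2 (lower), which did not pass. No overlap held for 5.78% of all tested genes in the higher and 7.1% in the lower direction. The share of mt-Rnr2 reads was 41.1% ± 3.20 (SD, n = 4) in WT ligated libraries. In BKO ligated libraries it was 47.9% ± 6.91 (SD, n = 4). Adamts5 stood at 409, 327, 395 and 397 in WT ligated and at 143, 141, 132 and 176 in BKO ligated libraries. The lowest WT value was above the highest BKO value, and the change was -1.36 ± 0.12 (adjusted p = 1.32e-07), 2.58-fold lower. The exact two-sided permutation p was 0.0286, the smallest that 4 against 4 libraries allow (0.0695 adjusted over the 116 tests, which does not pass). Without WT ligated library 2 or 5, or BKO ligated library 2, 2 members passed in place of 8. It was 3 without BKO ligated library 4, and 4 without WT ligated library 4 or BKO ligated library 5.

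Adamtsl5 (ENSMUSG00000043822, chromosome 10, 80339110 to 80348412) had 226, 186, 191 and 231 in WT ligated and 157, 72.4, 110.3 and 104 in BKO ligated libraries. These values do not overlap either, and the change was -0.95 ± 0.17 (adjusted p = 0.000592). Adamtsl4 was at -0.83 ± 0.24 (adjusted p = 0.0367), Timp2 at -0.46 ± 0.13 (adjusted p = 0.0287), Adam9 at -0.27 ± 0.08 (adjusted p = 0.0277) and Loxl2 at -0.43 ± 0.13 (adjusted p = 0.049). Of these 4, Timp2 overlapped between the genotypes. The calls of the 4 were lost without the 2 BKO ligated libraries richest in mt-Rnr2 (replicates 4 and 5), a choice made after seeing the data, and 2 members then passed in all. Each was also lost without WT ligated 2 or 5 or BKO ligated 2. Loxl2 was the least stable of the 4 and passed in 6 of 30 alternatives, not among them TMM scaling, edgeR or any fit without 1 WT library (adjusted p up to 0.172).

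The 2 higher members came from low counts. Adam4, known from testis (ENSMUSG00000072972, chromosome 12, 81419443 to 81421946), had 13.0, 28.5, 11.3 and 24.7 normalized counts in WT ligated and 49.0, 41.7, 65.4 and 23.9 in BKO ligated libraries. Its ranges overlap, at 1.19 ± 0.33 (adjusted p = 0.0261). Adamts20, a proteinase known from melanoblast migration, had 24.3, 23.1, 23.5 and 56.0 in WT and 81.0, 89.6, 37.8 and 94.0 in BKO, also with overlap, at 1.25 ± 0.39 (adjusted p = 0.0472). Adam4 also rose with ligation in BKO, by 1.65 ± 0.31 (adjusted p = 0.000217), and Adamts20 by 1.04 ± 0.37 (adjusted p = 0.0247), a call that ended with the replicate block and without BKO intact 2 or BKO ligated 2, 4 or 6 (up to 0.0777). Both calls between genotypes ended when any of several ligated libraries was left out, WT ligated 2 or 5 and BKO ligated 2 or 4 among them (adjusted p up to 0.271 for Adam4 and 0.127 for Adamts20).

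Adamts5, Adamtsl4, Adamtsl5 and Timp2 were lower in BKO in both limbs, which is 44.4% of the members lower in intact and 66.7% of those lower in ligated limbs. For all tested genes called lower these shares were 19.6% and 40.8%. The 2 comparisons share no libraries, but they may share mice and they share an estimate of the spread. They are therefore not taken as independent. Across the 43 members the changes had the same sign in 28, and Pearson's r was 0.501, against 0.302 over all tested genes. Among related genes, Serpine2 changed by -0.73 ± 0.11 in ligated limbs (adjusted p = 7.06e-05), and none of the 15 collagen genes passed by limma, edgeR or DESeq2 (4 were lower at an unadjusted p under 0.05 by limma). Of 12 macrophage markers 3 were lower in BKO (Csf1r, C1qc and Lyz2) and 0 higher. Of 12 fibroblast and fibro-adipogenic markers 3 were lower (Dpt, Gsn and Dcn) and 0 higher. The shares of all tested genes in ligated limbs were 4.68% lower and 4.16% higher. Of 10 adipocyte markers 2 were lower and 0 higher, with a median of -1.06. Their sum was 7134 to 9999.7 in WT ligated and 4651 to 7925 in BKO ligated libraries. It is weighted towards the markers with the most counts and need not follow most of them. The part of these cell types in the lower members was not tested, and neither was that of the mt-Rnr2 share.

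The interaction asks whether the ligation effect differed between genotypes. It passed for 3 members, 2 higher and 1 lower, against 3.04% and 2.97% of all tested genes. For Adamts1 the difference was 1.36 ± 0.19 (adjusted p = 0.000636). With ligation Adamts1 changed by -0.82 ± 0.13 in WT (adjusted p = 5.13e-05), the 4 WT ligated values of 334, 355, 311 and 323 lying under all WT intact values. In BKO it rose by 0.54 ± 0.13 (adjusted p = 0.00233), to 245, 301, 322 and 375, with 1 ligated value inside the intact range. In ligated limbs the genotypes overlapped, at -0.10 ± 0.14 with a 95% interval of -0.40 to 0.19 (adjusted p = 0.715). The effects of ligation thus had opposite signs, and the 4 groups ordered from WT intact at 591 ± 87.8 (SD, n = 5) through WT ligated at 331 ± 18.9 (SD, n = 4) and BKO ligated at 311 ± 53.9 (SD, n = 4) to BKO intact at 213 ± 33.0 (SD, n = 5).

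Adamts5, its neighbour on the chromosome, showed another pattern. It rose with ligation in WT by 0.49 ± 0.11 (adjusted p = 0.00197) and was at -0.08 ± 0.11 in BKO (adjusted p = 0.591). The difference was -0.57 ± 0.16 (adjusted p = 0.0414). Adamtsl3 went the other way: WT ligated values of 156, 92.2, 140.2 and 100.5 overlapped the intact ones, at -0.00 ± 0.15 (adjusted p = 0.985). BKO ligated values of 115, 121, 109 and 115 lay above all BKO intact ones, a rise of 0.74 ± 0.15 (adjusted p = 0.000473). The difference between genotypes was 0.75 ± 0.22 (adjusted p = 0.0435). Among the fits without 1 library, the interaction of Adamts5 passed only without WT intact 6, WT ligated 4, BKO intact 5 or BKO ligated 6, and that of Adamtsl3 only without WT intact 6, WT ligated 2 or 5, or BKO intact 1 or 5 (adjusted p up to 0.195 and 0.132 over all alternatives). That of Adamts1 passed in every alternative.

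**Figure D4:**
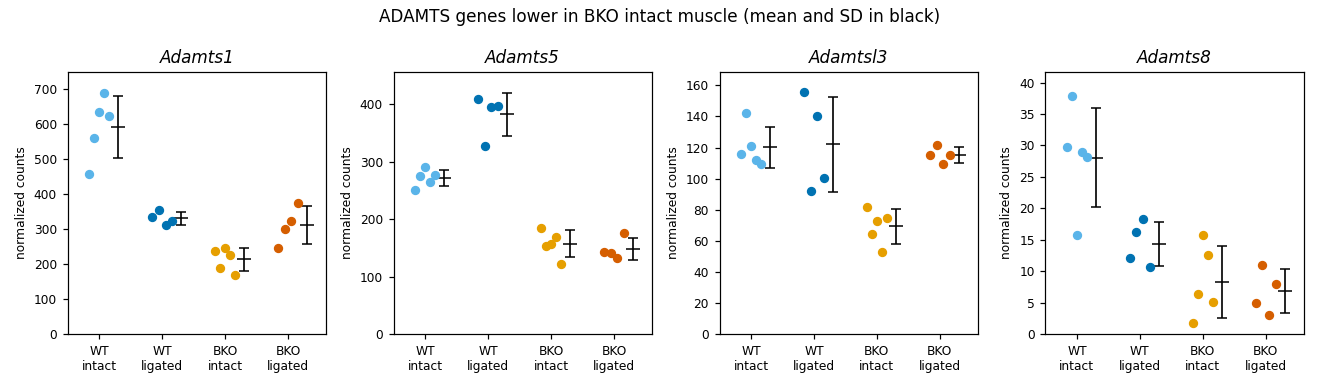
Normalized counts of Adamts1, Adamts5, Adamtsl3 and Adamts8 in every library, by group, with the group mean and SD in black at the side of each set of points (5 intact and 4 ligated libraries per genotype). Adamts1 is highest in WT intact and lowest in BKO intact muscle, while Adamts5 is lower in BKO in both limbs.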

How the data were processed

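Per the labels' protocols, total RNA of 18 tibialis anterior samples went into stranded TruSeq libraries. Trimmomatic 0.33, STAR 2.5.2, RSEM 1.3.3, DESeq2 and the build mm10 are named in the submitters' processing notes. The sources used here give neither the annotation nor the strand setting. The authors deposited 1 table of normalized counts (a signal in reads divided by 1 size factor per library). All values became whole reads within 0.001, which gave the depth of each library and the reads for edgeR 4.0.16 and DESeq2 1.42.0. Of 20922 genes 20643 had a symbol.

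Genes with a mean of at least 10 normalized counts were fitted with limma 3.58.1 (R 4.3.3) on log2(normalized count + 1), as 4 group means over all 18 libraries with an intensity trend, and p-values were adjusted by Benjamini-Hochberg over all genes tested. The fit was tested on simulated data. The labels do not say which samples share a mouse. What the p-values measure is therefore only how these samples vary, which may be technical. The text names the TIMPs, lysyl oxidases, Mmp2, Mmp9 and Mmp14, up to 12 members per direction with the smallest p in each comparison, every member that passed between genotypes or in the interaction, those nearest the limit, and up to 4 genes of each other list. Other members appear by level, or as having passed or not. The members and lists were chosen with earlier results of these data known. Alternatives were another pseudocount, limit, scaling, trend or tool, only the groups compared, a replicate block, and leaving out each library.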

Additional observations from a re-analysis of the deposited data

Results flagged for a closer look

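In 128 groups of 4 or 5 libraries, 1 for each named member and group, 5 held a single library far from the others. At the 95% critical value used, chance is taken to set apart about 1 group in 20. Adam8 stood at 28.8 normalized counts in BKO intact library 5, against 1.67 to 4.45 in the other 4. Adamts20 stood at 56.0 in WT ligated library 6, against 23.1 to 24.3. Adamts3 stood at 21.3 in WT intact library 3, against 7.74 to 11.04. WT ligated library 4 stood apart for both Adamts5, low at 327 against 395 to 409, and Timp3, high at 2259 against 1607 to 1703.

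The effect of ligation differed between BKO and WT for 3 members by the interaction test. Of all tested genes 3.04% passed higher and 2.97% lower, and of the 3 members only Adamts1 passed in every alternative. The difference, as BKO minus WT on the log2 scale, was 1.36 for Adamts1, a versican-cutting proteinase that fell in WT and rose in BKO. It was -0.57 for Adamts5, which rose in WT and did not pass in BKO, and 0.75 for Adamtsl3, which rose in BKO and did not pass in WT.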

How the results depend on the processing

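Of the calls for named members, 15 of 17 for ligation in WT, 15 of 21 for ligation in BKO, 5 of 9 for genotype in intact limbs, 2 of 8 in ligated limbs and 1 of 3 interactions passed in every alternative. Members called in BKO with ligation numbered 18 in place of 28 at a mean of at least 50, where 25 members were tested. Between genotypes in ligated limbs 4 passed in place of 8 with only the groups compared, without the intensity trend or with the replicate block, and 2 without the 2 BKO ligated libraries richest in mt-Rnr2, an alternative added after seeing the data. The interaction passed for 1 in place of 3 at a mean of at least 1, with no filter, without the trend, with the block, and without those 2 libraries. The cause was not tested. Leaving out 1 library gave 18 to 22 and 22 to 28 members for ligation in WT and BKO, 5 to 11 and 2 to 9 between genotypes in intact and ligated limbs, and 1 to 4 for the interaction.

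Some values that had not passed changed sign, and none passed after it. Adamtsl3 with ligation in WT was 0.0225 under TMM scaling, 0.0609 by edgeR, 0.0505 by DESeq2 and 0.0576 with the block, and between -0.13 and 0.12 without 1 library. Adamts5 with ligation in BKO was 0.0291 without the 2 libraries rich in mt-Rnr2. Between genotypes in ligated limbs, leaving out 1 library gave -0.20 to 0.00352 for Adamts1 and -0.17 to 0.0772 for Adamtsl3.

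Intact and ligated libraries of 1 replicate number correlated between -0.05 and 0.05 in WT (4 pairs) and between -0.06 and 0.02 in BKO (3 pairs) in their deviations from the group means. This cannot show whether a number marks a mouse, because an intact and a ligated limb of the same mouse need not deviate alike. With the block the counts were 19, 21, 6, 4 and 1 in the order above. Over 32 pairs of replicates chi-square per degree of freedom was 8.0 to 158, so none repeats another within counting error. Depth limits members under the mean of 10, where a library holds few reads.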
